A study of Mus musculus with 4 samples.

Results

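The 9 genes described here encode the core of the MHC class I antigen presentation route and of type I interferon signalling: H2-D1, H2-K1, B2m, Tap1, Tap2, Tapbp, Ifnar1, Stat2 and Irf9. They were chosen by name, with earlier results of these data known. All 9 were found among the 18854 genes listed in the deposited table. RNA was sequenced from wild-type mouse cortical neurons in culture at 15 days in vitro (DIV), in 2 libraries titled DMSO and 2 libraries from cultures exposed for 2 days to a p53 activator, Nutlin-3. Nutlin-3 blocks the binding of p53 to MDM2, the ubiquitin ligase that has p53 degraded. The DMSO libraries carry the treatment label of untreated cells, so whether they received the solvent follows from their titles alone. The RNA was total RNA depleted of ribosomal RNA, and no label ties each library to a culture of its own. The p-values therefore measure how far these libraries spread, which may be technical.

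MHC class I molecules are made of a heavy chain (H2-D1 and H2-K1 encode the classical ones of the mouse) and the light chain beta-2 microglobulin, encoded by B2m. Tap1 and Tap2 form the transporter that brings peptides from the cytosol into the endoplasmic reticulum, and Tapbp encodes tapasin, which holds empty class I molecules at that transporter while they are loaded. Ifnar1 encodes a chain of the type I interferon receptor, and Stat2 and Irf9 encode subunits of ISGF3, the complex that the receptor activates and that switches on interferon-stimulated genes, the class I genes among them. Neurons are known for low class I expression, which rises with interferon, and class I molecules are also known for a part in the pruning of synapses. Tap1, Irf9 and the peptide-trimming enzyme gene Erap1 have been described in other cells as genes that p53 can switch on.

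Class I promoters are known for a compact block of elements in which an interferon response element lies upstream of a module of X and Y boxes. The 3 sequences below are shown because they belong to the chains of the class I molecule, which are known to be switched on together by interferon, and H2-D1 is the chain gene called here. Each is the 170 bases before an annotated start on the gene's own strand, taken from RefSeq on GRCm38.p6 (H2-D1 chr17:35262924-35263093, plus strand, H2-K1 chr17:34000348-34000517, minus strand, B2m chr2:122147517-122147686, plus strand), with capitals marking matches to the letters GAAANNGAA or GAANNGAA and to TGACG on either strand.
H2-D1: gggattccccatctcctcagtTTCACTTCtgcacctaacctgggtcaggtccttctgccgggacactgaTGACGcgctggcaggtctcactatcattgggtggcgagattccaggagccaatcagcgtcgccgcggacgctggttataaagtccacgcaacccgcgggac
H2-K1: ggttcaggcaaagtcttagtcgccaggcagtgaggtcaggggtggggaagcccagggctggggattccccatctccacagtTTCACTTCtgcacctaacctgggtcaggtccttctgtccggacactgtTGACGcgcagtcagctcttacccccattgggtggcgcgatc
B2m: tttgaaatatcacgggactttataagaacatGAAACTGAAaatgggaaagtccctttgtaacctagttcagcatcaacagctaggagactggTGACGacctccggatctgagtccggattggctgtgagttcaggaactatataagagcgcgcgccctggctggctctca
The heavy chain promoters held the same block, TTCACTTC followed by TGACG, at -149 and -101 from the start in H2-D1 and at -89 and -41 in H2-K1. RefSeq gives H2-K1 a second start, from which the same matches lie at -103 and -55. Their longest identical run was 47 bases, from -201 to -155 in H2-D1 and from -141 to -95 in H2-K1. B2m held the longer GAAACTGAA at -139 and TGACG at -78.

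RefSeq promoters, 300 bases each from 250 before the start to 50 after it, were matched for 8 of the 9 genes, all but Tap2. Both strands were searched. GAAANNGAA, a core of interferon regulatory factor sites, was found in B2m and Stat2 and occurred in 8.56% of all 32851 promoters in the RefSeq table. Its shorter form GAANNGAA, which GAAANNGAA does not contain, was found in H2-D1, H2-K1 and Stat2 and in 20.1% of all promoters. TGACG, the first letters of a cyclic AMP response element, was found in H2-D1, H2-K1, B2m, Tap1 and Ifnar1 and in 20.8% of all promoters, and the full TGACGTCA, which contains it, was in none of the 8 and in 1.79% of all. Tapbp and Irf9 held none of these letters in this window. These matches describe letters and do not show that a factor binds. GAANNGAA and TGACG were chosen after these promoters were seen, so their counts here cannot be weighed against the shares of all promoters.

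Levels are given as CPM, read counts scaled to the total of their library, and a change is the log2 fold change of p53 activator minus DMSO on the log2(CPM + 1) scale, with its standard error (SE) from the limma fit over all 16654 genes tested. A gene is called where its p, adjusted by Benjamini-Hochberg over those genes, is under 0.05. All 9 genes passed the filter of 1 CPM in 2 libraries. H2-D1 and Ifnar1 were called higher with the activator and none of the 9 was called lower. The share of 22.2% called higher stands beside 16.9% of all genes tested and 21.2% of the nuclear protein-coding genes tested, and the share of 0% called lower beside 16.3% of all genes, so the count of higher calls lies near the background. The activator libraries lay wholly above the DMSO libraries in 6 of the 9 genes, or 66.7% against 36.6% of all genes tested. They lay wholly below in none, against 30.9%. These shares were read on CPM only and were not computed for nuclear protein-coding genes alone. With those genes divided by their own sum in each library, the changes of H2-K1 and Tapbp were 0.02 and -0.04. Those of H2-D1, Tap1, Tap2 and Ifnar1 lay between 0.09 and 0.40. The changes of B2m, Stat2 and Irf9 were -0.18, -0.20 and -0.36. A gene with a negative change cannot have both activator libraries above both DMSO libraries, so the count on that scale lies below 6. Its exact value was not computed. The median change of the 9 was 0.15, beside 0.03 over all genes tested and 0.09 over the nuclear protein-coding ones.

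**Figure D1:**
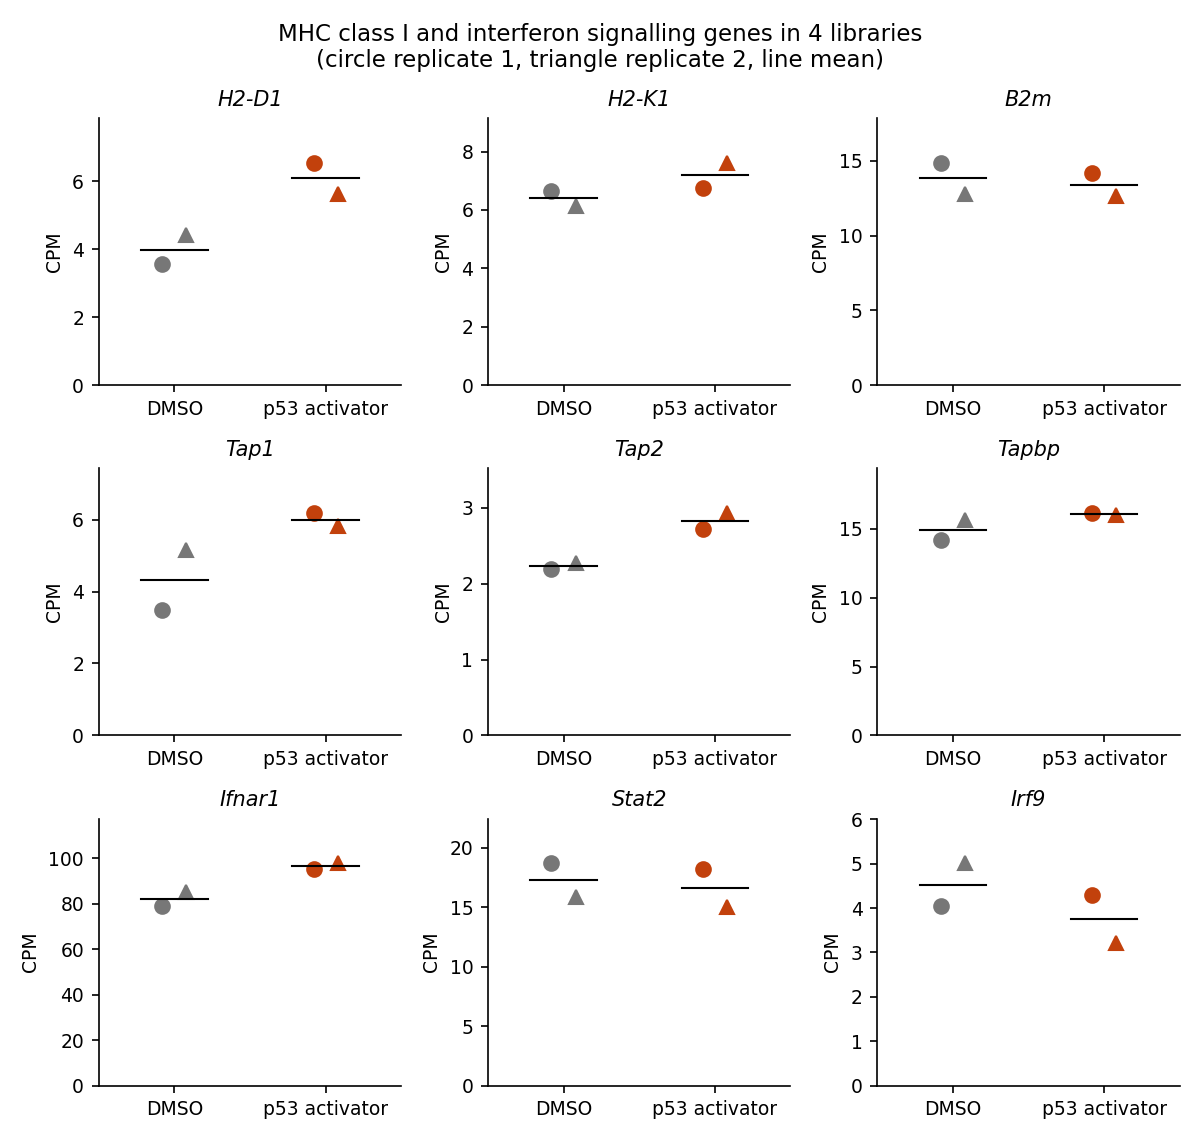
CPM (vertical axis, from 0) of each of the 9 genes in the 2 DMSO libraries (grey) and the 2 p53 activator libraries (orange), with circles for replicate 1, triangles for replicate 2 and a line at the group mean. H2-D1, H2-K1, Tap1, Tap2, Tapbp and Ifnar1 show no overlap between the groups, while B2m, Stat2 and Irf9 overlap.

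Among the chains of the class I molecule, the heavy chain H2-D1 was the gene that passed the test. H2-D1 measured 3.57 CPM in DMSO replicate 1 (52 reads), 4.41 CPM in DMSO replicate 2 (66 reads), 6.56 CPM in activator replicate 1 (125 reads) and 5.64 CPM in activator replicate 2 (100 reads). Both activator libraries were above both DMSO libraries, and the ratio of the group means was 1.53. The log2 fold change was 0.51 ± 0.18 (SE, n = 2 libraries per group), with a 95% interval of 0.16 to 0.86 and a limma adjusted p of 0.0189. At these depths the 95% Poisson intervals, which cover counting error alone, ran from 3.41 to 5.61 CPM in DMSO replicate 2 and from 4.59 to 6.87 CPM in activator replicate 2, so the nearest pair of libraries was not separated by counting error. H2-D1 no longer passed without DMSO replicate 1 (adjusted p = 0.203), without activator replicate 1 (adjusted p = 0.158), with DESeq2 (adjusted p = 0.146) and on a scale set by the protein-coding total, in which nuclear protein-coding genes alone are divided by their sum in each library (log2 fold change 0.40, adjusted p = 0.115). Over all 16 alternatives the H2-D1 change stayed positive, between 0.39 and 0.69, with adjusted p between 0.00564 and 0.203.

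The other classical heavy chain, H2-K1, was at 6.65 and 6.15 CPM in DMSO against 6.77 and 7.62 CPM with the activator. Its groups did not overlap, with DMSO replicate 1 just below activator replicate 1, and the change of 0.15 ± 0.16 (SE) had an adjusted p of 0.525, with a 95% interval of -0.18 to 0.47. B2m, the light chain shared by all class I heavy chains, was at 14.9 and 12.8 CPM in DMSO against 14.2 and 12.6 CPM with the activator. Its groups overlapped, and the change was -0.04 ± 0.13 (SE, adjusted p = 0.845). The 95% interval of B2m, -0.30 to 0.22, overlaps that of H2-D1, 0.16 to 0.86.

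Ratios within a library do not depend on how libraries are scaled. The ratio of H2-D1 to B2m CPM was 0.240 and 0.346 for DMSO against 0.463 and 0.446 for the activator, so the groups did not overlap. The ratio of H2-D1 to H2-K1 was 0.536 and 0.717 in DMSO and 0.969 and 0.741 with the activator, and again did not overlap. H2-K1 over B2m ranged from 0.447 to 0.482 in DMSO and from 0.478 to 0.603 with the activator, which overlap. With 2 libraries per group no permutation test of a ratio can reach 0.05. The differences between the change of H2-D1 and those of H2-K1 and B2m were not tested.

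Class I heavy chains are near copies of each other, and how reads that fit several genes were counted is not given in the sources used here. Of all 50-base windows of the H2-D1 transcripts, 12.8% also occur in transcripts of other genes, and of the 100-base windows 3.59%. For H2-K1 these shares were 9.63% and 0.957%, and for B2m they were 0. The H2-D1 and H2-K1 values are to that extent uncertain. Of other genes, H2-Q1 shares the most of these 50-base windows with H2-D1, 152, followed by H2-K1 with 141. H2-Q1, named for that reason, was at 0.343 and 0.534 CPM in DMSO against 0.262 and 0.621 CPM with the activator. Its groups overlapped, and it fell below the filter. H2-K2 shares 60 of these 50-base windows with H2-D1. It is a class I pseudogene in GENCODE, was chosen after its values were seen and is not in the heavy chain list. Whether shared reads moved the H2-D1 values was not tested. H2-K2 was at 0.137 and 0.869 CPM in DMSO (2 and 13 reads) against 1.84 and 1.02 CPM with the activator (35 and 18 reads) and was called higher (0.71 ± 0.23 SE, limma adjusted p = 0.00948). Its call was lost on leaving out DMSO replicate 1 (0.36, adjusted p = 0.414) or activator replicate 1 (0.47, adjusted p = 0.181), the libraries without which H2-D1 was not called either, and without a trend of the spread (adjusted p = 0.104).

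Among the genes of peptide transport and loading, all of Tap1, Tap2 and Tapbp lay higher in both activator libraries and none passed the test. Tap1 was at 3.50 and 5.14 CPM in DMSO against 6.19 and 5.81 CPM with the activator. DMSO replicate 1 was the low library of its group. The change of 0.41 ± 0.18 (SE, 95% interval 0.06 to 0.77) had an adjusted p of 0.0631, and it passed without DMSO replicate 2 (0.64, adjusted p = 0.0174), under quantile normalization (0.59, adjusted p = 0.0236) and with the replicate number as a block (adjusted p = 0.0303). Without DMSO replicate 1 the Tap1 change was 0.19 (adjusted p = 0.588).

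Tap2, the other subunit of the transporter, was at 2.19 and 2.27 CPM in DMSO against 2.73 and 2.94 CPM with the activator, on 32 to 52 reads a library. Its change was 0.24 ± 0.20 (SE, adjusted p = 0.356). Tapbp was at 14.2 and 15.6 CPM in DMSO against 16.2 and 16.0 CPM with the activator, a change of 0.10 ± 0.13 (SE, adjusted p = 0.565) that turned to -0.04 on the protein-coding scale. Both share exon bases with genes on the opposite strand: Gm19412 covers 24.9% of the exon bases of Tapbp, and Gm15821 covers 14.1% of those of Tap2. Whether the counting used strand is not given in the sources used here, so reads of these pairs cannot be told apart. Gm19412 itself was counted at 0.452 to 0.735 CPM. On the same strand Zbtb22 shares 4.11% of the exon bases of Tapbp, and it was at 18.4 and 17.6 CPM in DMSO against 22.4 and 21.6 CPM with the activator (adjusted p = 0.0530).

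In the interferon branch, the receptor chain gene Ifnar1 was called higher and the ISGF3 genes Stat2 and Irf9 were not called. Ifnar1 was at 79.0 and 85.0 CPM in DMSO against 95.4 and 97.8 CPM with the activator. Both activator libraries were above both DMSO libraries. The ratio of means was 1.18 and the change 0.23 ± 0.08 (SE, 95% interval 0.08 to 0.39, adjusted p = 0.0171). The Ifnar1 call held in 8 of the 16 alternatives and was lost under every scaling alternative. With quantile normalization the change was 0.12 (adjusted p = 0.256), on the protein-coding scale 0.09 (adjusted p = 0.477) and with cyclic loess 0.08 (adjusted p = 0.485). The call was lost with edgeR (adjusted p = 0.075), with DESeq2 (adjusted p = 0.115) and without a trend of the spread (adjusted p = 0.147). It was also lost without DMSO replicate 1 (0.18, adjusted p = 0.236) and without activator replicate 2 (0.22, adjusted p = 0.0972).

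Stat2 was at 18.7 and 15.8 CPM in DMSO against 18.2 and 15.1 CPM with the activator, with overlapping groups and a change of -0.05 ± 0.12 (SE, adjusted p = 0.777). Irf9, the DNA-binding subunit of ISGF3, was at 4.05 and 5.01 CPM in DMSO against 4.30 and 3.22 CPM with the activator. The Irf9 groups overlapped and the change was -0.22 ± 0.19 (SE, 95% interval -0.59 to 0.15, adjusted p = 0.380). It stayed negative in each of the 15 alternatives that tested it, between -0.38 and -0.01.

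**Figure D2:**
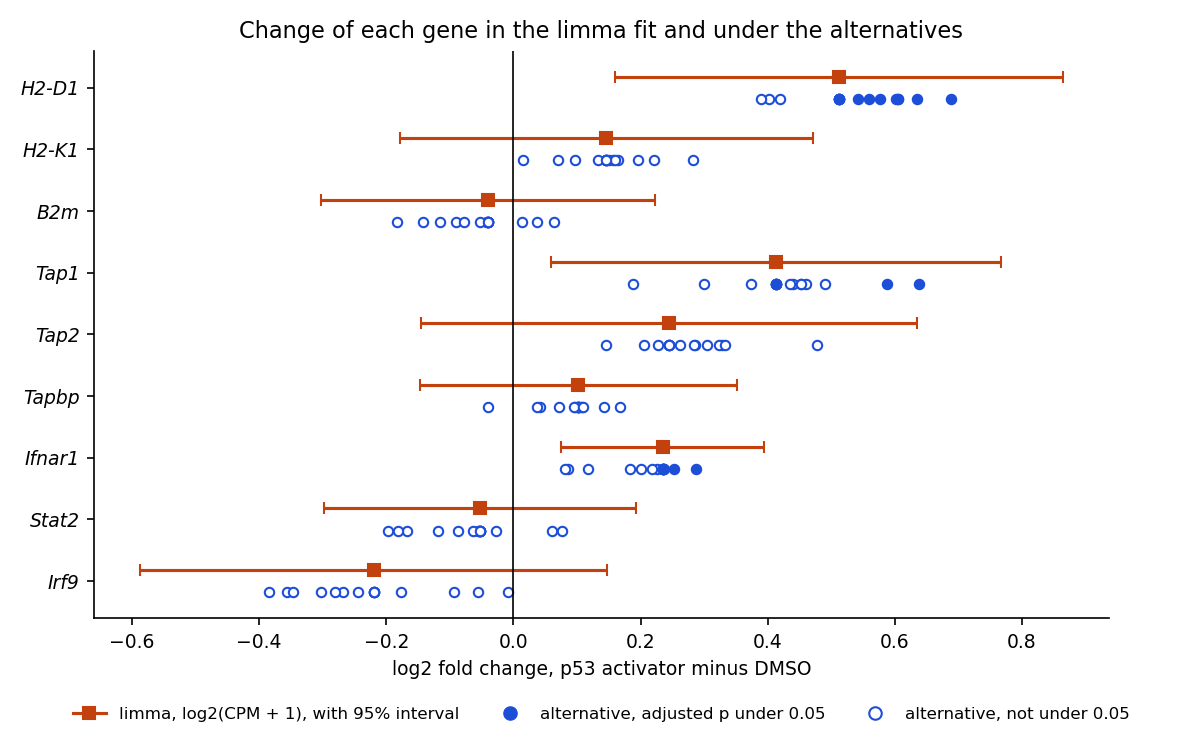
Log2 fold change of each gene, p53 activator minus DMSO (horizontal axis): the squares are the limma fit with 95% intervals, and the circles below each square are the alternatives, filled where the adjusted p was under 0.05. Filled circles occur for H2-D1, Tap1 and Ifnar1, and the circles of B2m, Tapbp and Stat2 lie on both sides of 0.

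Per kilobase of exon, B2m and Ifnar1 stood far above the other genes. The length is the union of the exons of all annotated transcripts, from 0.86 kb for B2m to 5.94 kb for Ifnar1. A union can be longer than the transcripts expressed, which were not determined, so the order of genes is approximate. In DMSO the mean levels were 16.1 ± 1.7 CPM per kb for B2m, 13.8 ± 0.71 for Ifnar1, 4.11 ± 0.28 for Tapbp, 2.92 ± 0.34 for Stat2, 2.18 ± 0.12 for H2-K1, 1.55 ± 0.23 for H2-D1, 0.841 ± 0.13 for Irf9, 0.789 ± 0.21 for Tap1 and 0.591 ± 0.014 for Tap2 (SD, n = 2). Of the neighbours in this order, the libraries of Irf9 and Tap1 overlapped. With the activator Ifnar1 (16.3 ± 0.28 CPM per kb) and B2m (15.6 ± 1.2) overlapped, as did H2-K1 (2.45 ± 0.21) with H2-D1 (2.37 ± 0.25) and with Stat2 (2.81 ± 0.37). Irf9 was then the lowest, at 0.698 ± 0.14, and overlapped with Tap2 at 0.749 ± 0.039.

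The genes whose pattern over the 4 libraries was most like that of H2-D1, among 8746 protein-coding candidates with a mean of at least 10 CPM, were Qdpr (dihydropteridine reductase), Suv39h1 (a histone H3 lysine methyltransferase) and Rcan1 (a calcineurin inhibitor). Their root mean square differences from H2-D1, on centred log2(CPM + 1) values over the 4 libraries, were 0.0123, 0.0257 and 0.0357. Qdpr was at 21.3 and 24.9 CPM in DMSO against 35.2 and 30.9 CPM with the activator. Its order of libraries is that of H2-D1, which follows from how it was chosen.

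Over whole libraries, total reads ranged from 14584247 to 19065197, so 1 read was worth 0.0525 to 0.0686 CPM. Mitochondrial transcripts took 14.3% to 15.7% of the reads of listed genes without the activator and 8.98% to 10.01% with it, and nuclear protein-coding genes 73.6% and 75.9% against 83.2% and 82.7%. The protein-coding scale lowered the change of the typical gene by 0.15 (log2), and the calls over all genes went from 2811 higher and 2721 lower to 570 higher and 1707 lower. With cyclic loess they were 642 higher and 1250 lower, and with edgeR 1872 higher and 2846 lower. The background for higher calls was then 4.37% on the protein-coding scale, where 0 of the 9 genes was called, and 10.6% with edgeR, where H2-D1 alone was called (adjusted p = 0.0353).

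Other genes of the class I and interferon pathways were read from lists by role, 115 genes tested in all outside the 9. Of these, 14 were called higher (12.2%) and 8 lower (6.96%), with a median of 0.02. On the protein-coding scale 1 of 111 tested was called higher, Ganab, and 10 lower. Over all genes tested in the main fit the shares were 16.9% higher and 16.3% lower, the background for each list below. Of 21 other class I heavy chain genes, 13 could be analysed here and 8 were tested, with 0 called higher and 1 lower and a median of -0.12, which turned to 0.12 under quantile normalization. The gene called lower was H2-M5, a nonclassical heavy chain, at 4.25 and 3.34 CPM in DMSO against 2.26 and 2.20 CPM with the activator. Its change was -0.56 ± 0.19 (SE, adjusted p = 0.0177), and the call was lost without either activator library and without DMSO replicate 1. The nonclassical H2-T23, chosen after its values were seen because it encodes Qa-1, was at 1.30 and 1.54 CPM in DMSO against 0.839 and 1.47 CPM with the activator, with an adjusted p of 0.545.

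The genes here that load and assemble class I molecules are mostly general chaperones or peptidases of the cell. Of 14 tested, 7 were called higher and 0 lower, with a median of 0.19. The share of 50% called higher stands beside 16.9% of all genes tested and 21.2% of the nuclear protein-coding ones. Ganab, the catalytic subunit of glucosidase II that trims glycans of new proteins, rose from 78.8 and 88.7 CPM to 106.0 and 120.5 CPM (0.43 ± 0.08 SE, adjusted p = 1.29e-05). Calr, calreticulin, a chaperone of the loading complex, rose from 228.4 and 233.2 CPM to 272.2 and 308.7 CPM (0.33 ± 0.08 SE, adjusted p = 0.000581), and was not called without activator replicate 2 (adjusted p = 0.0760) or on the protein-coding scale (adjusted p = 0.0593). The count of 7 was 3 with edgeR and with DESeq2, 1 under each of 3 scalings (quantile, cyclic loess and protein-coding) and 0 without a trend of the spread, and it was 2 without DMSO replicate 1 or without activator replicate 2. Erap1, named here for its described link to p53, was at 12.5 and 10.6 CPM in DMSO against 10.2 and 11.5 CPM with the activator, with overlapping groups and an adjusted p of 0.683.

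Of the immunoproteasome and its activators, 6 of 7 genes could be analysed and 5 were tested, with a median of 0.14. Psme3, the PA28 gamma activator of the nuclear proteasome, was the gene called, at 52.3 and 55.5 CPM in DMSO against 69.6 and 64.4 CPM with the activator (0.31 ± 0.09 SE, adjusted p = 0.00297). Without DMSO replicate 1 its adjusted p was 0.0858, and without activator replicate 1 it was 0.0564. Psmb9, an interferon-induced proteasome subunit whose gene lies beside Tap1, fell below the filter at 0.617 and 0.200 CPM in DMSO and 0.315 and 0.395 CPM with the activator.

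Among 12 tested transcription factors that act on class I genes, 2 were called higher and 2 lower, 16.7% each, and the median was -0.03. The factors called higher belong to the X and Y box complexes: Rfxap was at 13.03 and 13.6 CPM in DMSO and 17.5 and 17.2 CPM with the activator (0.36 ± 0.13 SE, adjusted p = 0.0207), and Nfya at 23.4 and 20.4 against 28.1 and 27.0 CPM (0.32 ± 0.11 SE, adjusted p = 0.0148). The factors called lower were Nfkb1, the NF-kappa-B p105 and p50 gene, and Irf2, which competes with activating factors at interferon response elements. Nfkb1 was at 14.3 and 13.5 CPM in DMSO and 9.13 and 9.93 CPM with the activator (-0.50 ± 0.14 SE, adjusted p = 0.00302). Irf2 was at 21.4 and 19.9 against 13.8 and 15.8 CPM (-0.46 ± 0.12 SE, adjusted p = 0.00192). The calls of Nfkb1 and Irf2 held under each scaling alternative run and were lost without DMSO replicate 1 (adjusted p = 0.0551 and 0.0558), while the 2 higher calls were lost on the protein-coding scale. Rfxap was called in none of the 4 fits that leave out a library, with adjusted p from 0.0520 to 0.138. Nfya was not called without DMSO replicate 2 (adjusted p = 0.213) or without activator replicate 1 (adjusted p = 0.0840).

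Of the other interferon receptors and their kinases and STAT proteins, 10 were tested, with 2 called higher (20%) and 0 lower. The median was 0.08, and -0.05 on the protein-coding scale. Jak1, a kinase bound to several interferon receptor chains, was at 152.5 and 165.8 CPM in DMSO against 192.6 and 197.4 CPM with the activator (0.29 ± 0.08 SE, adjusted p = 0.00180). Ifngr2, a chain of the interferon gamma receptor, was at 91.8 and 93.0 against 117.3 and 104.7 CPM (0.26 ± 0.08 SE, adjusted p = 0.00748). Like that of Ifnar1, these calls were lost on the protein-coding scale, and without DMSO replicate 1 the adjusted p was 0.0872 for Jak1 and 0.0805 for Ifngr2, and without activator replicate 1 it was 0.175 for Ifngr2. Ifnar2, the partner chain of Ifnar1 and named for that reason, was at 9.26 and 7.82 CPM in DMSO against 7.08 and 7.73 CPM with the activator (adjusted p = 0.403). The ratio of Ifnar1 to Ifnar2 CPM was 8.53 and 10.9 in DMSO and 13.5 and 12.6 with the activator, without overlap.

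Genes that restrain interferon signalling gave 1 called higher (8.33%) and 0 lower of 12 tested. The median was 0.04, and -0.10 on the protein-coding scale. The gene called was Ptpn11, the phosphatase SHP2, at 113.5 and 123.5 CPM in DMSO against 146.6 and 141.6 CPM with the activator (0.28 ± 0.08 SE, adjusted p = 0.00304, and 0.119 without DMSO replicate 1). No gene of 9 interferon ligands could be analysed here. Of 7 neuronal class I receptors and partners, 2 could be analysed and Insr, the insulin receptor, was the one tested, at 82.3 and 92.6 CPM in DMSO and 92.4 and 100.2 CPM with the activator (adjusted p = 0.181).

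Interferon-stimulated genes, the targets of ISGF3, gave 1 called higher and 0 lower of 26 tested, from 87 in the list and 45 that could be analysed. The list holds Tap1, Stat2 and Irf9. Its share of higher calls was 3.85%, beside the 16.9% of all genes tested. Its median was -0.06, which turned to 0.11 under quantile normalization. With a filter of 5 CPM, 12 of the 26 were tested, and their median was 0.12 beside 0.09 over all genes. The gene called was Shisa5, an endoplasmic reticulum protein also described as a p53 target, at 19.9 and 20.7 CPM in DMSO against 26.3 and 24.9 CPM with the activator (0.32 ± 0.11 SE, adjusted p = 0.0169). Its adjusted p was 0.137 without DMSO replicate 1 and 0.106 without activator replicate 1. Isg15, Ifit1, Ifit3, Mx1, Irf7 and Cxcl10 were among the 42 not analysed here.

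**Figure D3:**
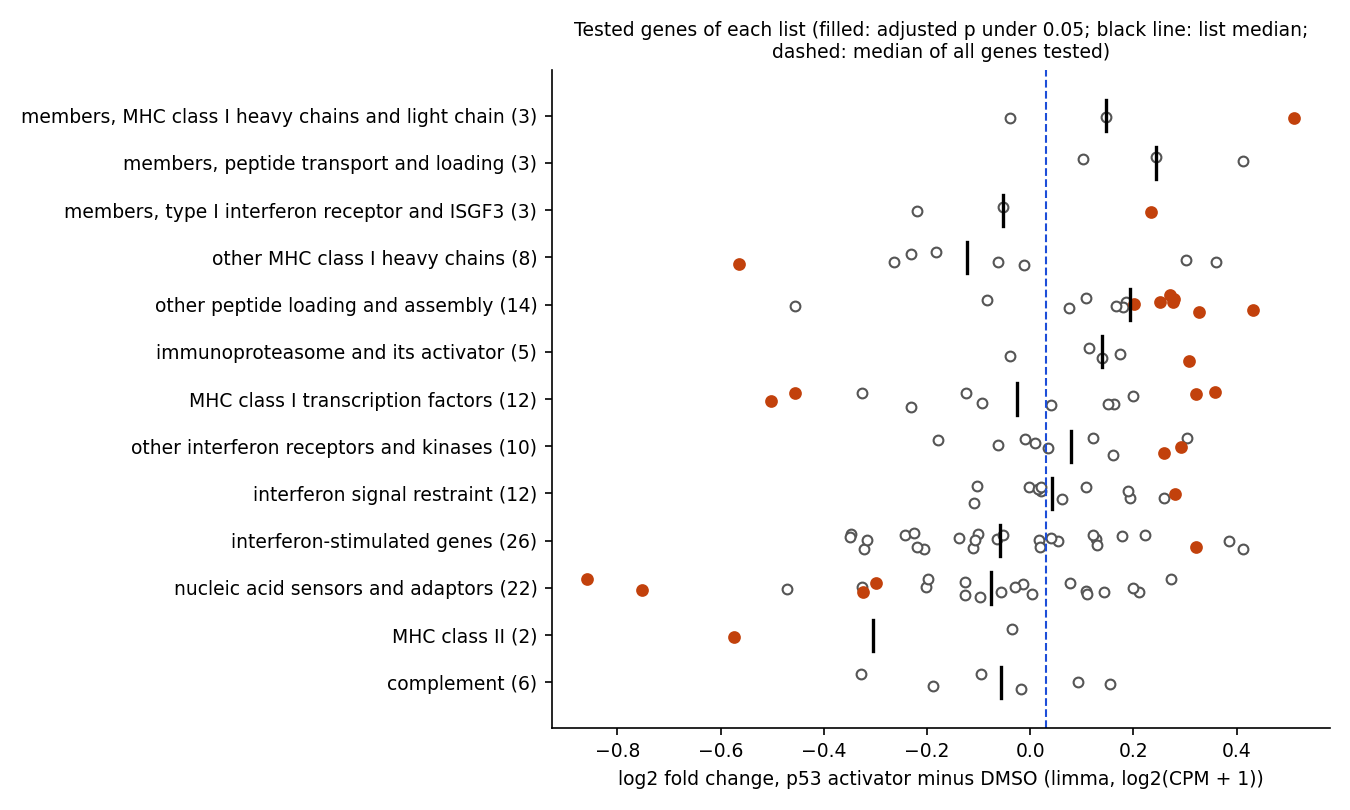
Log2 fold change of every tested gene (horizontal axis) in each list, with the number tested in brackets, filled where the limma adjusted p was under 0.05, a black line at the list's median and a dashed line at 0.03, the median of all genes tested. The 7 filled points of other peptide loading and assembly lie above 0, the 26 interferon-stimulated genes hold 1 filled point, and the 4 filled points of the nucleic acid sensors lie below 0.

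In a bulk culture, fewer cells of a type and less RNA per cell cannot be told apart, and class I and interferon genes are expressed strongly in microglia, so markers of other cells were read in the same libraries. Neuronal markers summed to 7234 and 8043 CPM in DMSO and to 8539 and 8691 CPM with the activator. Of 10, 8 were called higher (80%) and 1 lower (10%), beside 16.9% and 16.3% of all genes tested. With cyclic loess 3 were called higher and 2 lower, and without a trend of the spread 2 higher and 0 lower. On the protein-coding scale 7 were called higher and 2 lower. Quantile normalization, edgeR and DESeq2 each gave 8 higher and 1 lower. The most abundant, Map2, was at 3605 and 4121 against 3564 and 3602 CPM (-0.11, adjusted p = 0.581). Map2 was called in 3 of 16 alternatives, among them lower on the protein-coding scale (-0.26, adjusted p = 0.0152), and its change ranged from -0.38 to 0.24. Astrocyte markers summed to 2453 and 2411 against 2803 and 2774 CPM, with 1 of 10 called higher, Slc1a2, at 1311 and 1310 against 1572 and 1569 CPM (adjusted p = 0.0362). The Slc1a2 call held in 7 of 16 alternatives and was lost with edgeR (adjusted p = 0.108), on the protein-coding scale (0.301), and without DMSO replicate 1 (0.0582), activator replicate 1 (0.255) or activator replicate 2 (0.246). Oligodendrocyte lineage markers summed to 178.8 to 202.3 CPM over the 4 libraries, led by Olig1 at 111.6 and 104.6 against 124.7 and 118.4 CPM (adjusted p = 0.0861).

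Of 22 microglial markers, 7 could be analysed, and Cx3cr1, Tmem119, Ptprc, Itgam, Tyrobp, Trem2 and the C1q genes were not analysed here. Those analysed were at 0 in no library. They summed to 34.0 and 31.7 CPM in DMSO and to 25.3 and 21.9 CPM with the activator. Of the 6 tested, 2 were called lower (33.3%, beside 16.3% of all genes tested). The purine receptor gene P2ry13 was at 2.47 and 2.81 CPM in DMSO against 0.420 and 0.734 CPM with the activator (-1.21 ± 0.21 SE, adjusted p = 2.56e-06), and the receptor gene Gpr34 was at 12.6 and 12.4 against 7.97 and 6.32 CPM (-0.73 ± 0.15 SE, adjusted p = 5.67e-05). P2ry12 was at 2.88 and 1.67 against 1.63 and 0.960 CPM (adjusted p = 0.0547). Csf1r (0.754 and 1.34 against 1.05 and 1.47 CPM), Sall1 (13.1 and 10.8 against 11.2 and 10.8 CPM) and Cd68 (1.30 and 1.40 against 2.10 and 1.13 CPM) were not called, with adjusted p from 0.600 to 0.683. P2ry13 lies within a host gene, Med12l, and how strand was treated is not stated. Whether reads of overlapping genes enter the counts of these markers was not tested. The part of microglia in the levels of the class I and interferon genes was not tested.

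**Figure D4:**
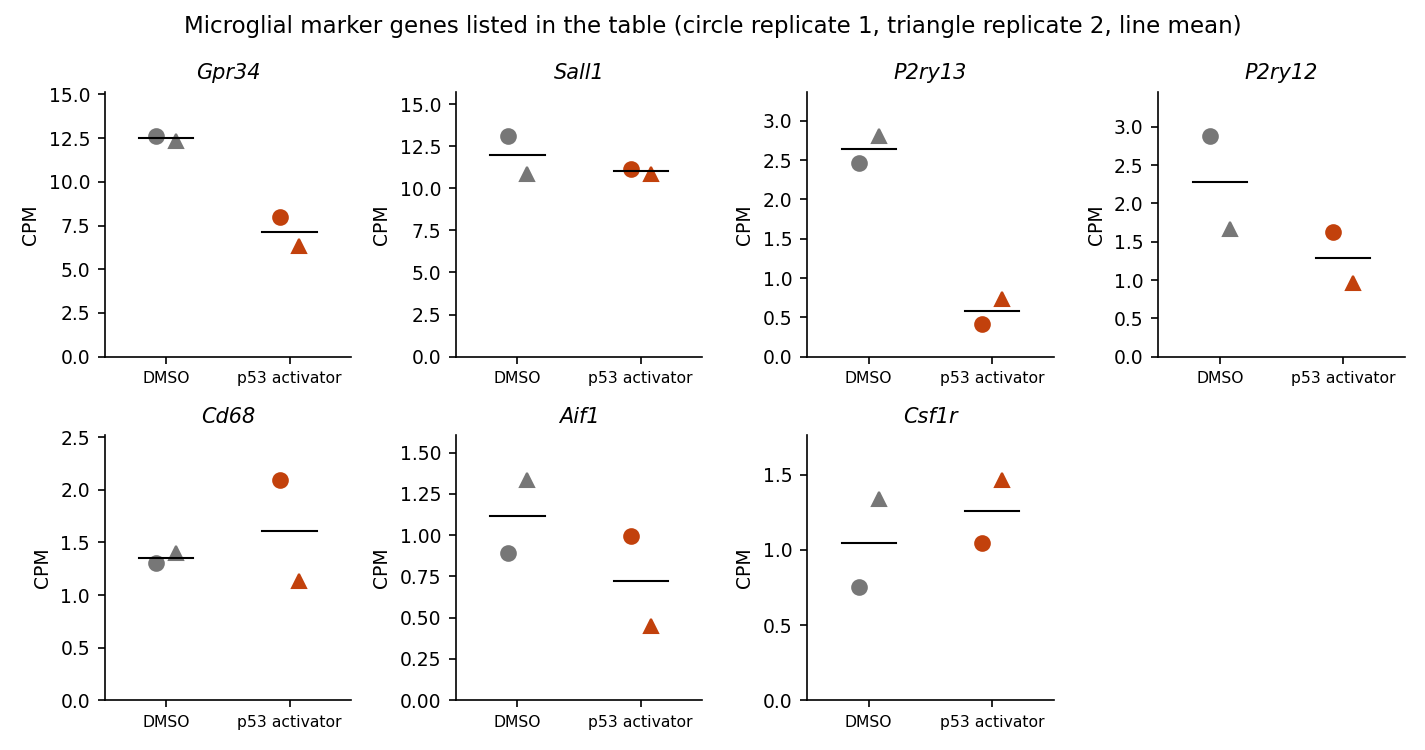
CPM (vertical axis, from 0) of the 7 microglial markers that could be analysed, in the 2 DMSO libraries (grey) and the 2 p53 activator libraries (orange), with circles for replicate 1, triangles for replicate 2 and a line at the group mean. P2ry13 and Gpr34, the markers called lower, and P2ry12, which was not called, show no overlap between the groups. The largest activator value of Cd68 and of Csf1r lies above both DMSO values.

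Markers of other cells were sparse. Endothelial markers summed to 3.93 to 5.69 CPM over the libraries, led by Slco1a4 at 4.05 and 2.41 against 2.20 and 3.22 CPM (adjusted p = 0.536), and pericyte and fibroblast markers to 18.8 to 22.8 CPM, led by Dcn at 11.2 and 12.3 against 10.5 and 12.5 CPM (adjusted p = 0.878). Markers of T cells, B cells and other blood cells summed to 0.891 to 1.80 CPM, led by Cd4 at 0.480 and 1.27 against 0.997 and 1.07 CPM (adjusted p = 0.636). The neuronal label of the cultures thus stands beside a large neuronal signal, a clear astrocyte signal and a low signal of microglial markers.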

How the data were processed

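RNA-seq libraries, 2 titled DMSO and 2 p53 activator, were compared. The deposited table gives CPM per gene, which the authors made with TopHat2 and Cufflinks 2.0.0 on mm9 per the submitters' processing notes. The unit was read from the values: each is a whole number of reads within 0.01 reads (100% of values), totals are 14584247 to 19065197 reads, and 0.133% to 0.208% of reads lie outside the listed genes. How strand and multi-mapping reads were treated, and the read length, is not stated in the labels. CPM share 1 total, so a fall of mitochondrial reads raises every other gene.

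Genes reaching 1 CPM in 2 or more libraries were tested with limma 3.58.1 (R 4.3.3) on log2(CPM + 1), with a trend of the spread, two-sided, adjusted by Benjamini-Hochberg. The fit had 2 residual degrees of freedom, and its prior of 98 was borrowed from all genes, so SEs of single genes rest mostly on the trend. Alternatives were pseudocounts 0.5 and 0.1, no filter and a filter of 5 CPM, 3 scalings, 2 variance models, edgeR 4.0.16 and DESeq2 1.42.0 on recovered reads, a replicate block, and leaving out each library. Equal replicate numbers have no stated shared origin, so the main fit has no block. Gene lengths are GENCODE vM21 exon unions, and shared windows come from its transcripts. Promoters are RefSeq's.

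The 9 genes, the lists and the tests were chosen with earlier results of these data known, and the letters GAANNGAA and TGACG after the promoters were seen. Named are the 9 genes, from each pathway list the called genes where 4 or fewer (otherwise the 2 higher and 2 lower with the smallest p) or else the most abundant tested gene, the most abundant tested gene of each marker list, all tested microglial genes, and the 3 genes most like H2-D1. Genes outside this rule are marked as such, and 2 genes of the lists are not reported here. No paralog correction was made.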

Additional observations from a re-analysis of the deposited data

How the results depend on the processing

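The count of 2 genes called higher was 0 on the protein-coding scale and with DESeq2, 1 with cyclic loess, without a trend of the spread and with edgeR, and 0 to 3 on leaving out 1 library, the 0 being without DMSO replicate 1. At an unadjusted p under 0.05 the limma fit gave 3 of 9. No alternative called any of the 9 lower. With the replicate block the count was 3, Tap1 being added. Over the genes tested, the deviations of the replicate 1 libraries from their group means correlated at 0.117. With 2 libraries per group those of replicate 2 mirror them, so this is 1 pair, too few to show that numbers pair cultures. The change of B2m turned to 0.013 under quantile normalization and ranged from -0.143 to 0.064 on leaving out 1 library, that of Stat2 from -0.181 to 0.076, and that of Tapbp turned to -0.040 on the protein-coding scale. H2-K1, Tap1, Tap2, H2-D1 and Ifnar1 stayed positive and Irf9 negative in each alternative that tested them; Tap2 and Irf9 were not tested at 5 CPM. The count of 14 pathway genes called higher outside the 9 was 1 on the protein-coding scale and with cyclic loess, 8 with quantile normalization, 6 with DESeq2, 0 without a trend, and 3 to 11 on leaving out 1 library. The cause of these shifts was not tested. H2-D1, Tap1, Tap2 and Irf9 rest on 32 to 125 reads a library.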

Other observations

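Beyond class I and interferon signalling, the genes that sense foreign or misplaced nucleic acids gave 0 called higher and 4 lower of 22 tested, with a median of -0.08, which turned to 0.05 under quantile normalization. The share called lower was 18.2%, beside 16.3% of all genes tested. Aim2, the DNA sensor of an inflammasome, was at 4.18 and 4.94 CPM in DMSO against 2.15 and 1.98 CPM with the activator (-0.86 ± 0.19 SE, limma adjusted p = 0.000236), and the call held in all 15 alternatives that tested it. Irf5, a transcription factor downstream of Toll-like receptors, was at 3.09 and 2.34 against 1.26 and 1.13 CPM (-0.75 ± 0.20 SE, adjusted p = 0.00260, and 0.111 without DMSO replicate 1). The adaptor genes Tbkbp1 and Tank, whose products bind the kinase TBK1, were at 32.2 and 29.8 against 26.2 and 22.9 CPM (adjusted p = 0.0107) and at 26.1 and 21.0 against 20.8 and 17.1 CPM (adjusted p = 0.0370). Both calls were lost without DMSO replicate 1 (adjusted p = 0.162 and 0.532) and without activator replicate 2 (0.163 and 0.400). Microglial markers summed to a lower level in the activator libraries as well, and their part in these values was not tested.

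Of the MHC class II genes, 2 of 9 were tested. Ciita, the master regulator of class II transcription, was called lower, at 6.58 and 6.55 CPM in DMSO against 4.41 and 3.78 CPM with the activator (-0.57 ± 0.17 SE, limma adjusted p = 0.00719). Its adjusted p was 0.0562 without DMSO replicate 1 and 0.0819 without activator replicate 2. Complement genes gave 0 called in either direction of 6 tested with limma, with 0 at an unadjusted p under 0.05 and 0 with edgeR. The most abundant of them, Cfb, was at 5.90 and 4.54 CPM in DMSO against 3.88 and 5.87 CPM with the activator (adjusted p = 0.725).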
